A study of Mus musculus with 51 samples.

Results

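The solute carriers are membrane proteins, named Slc with a family number, that move ions, amino acids, sugars, metabolites, vitamins and metals across the cell surface or the membranes of organelles. All rows of the cochlear data whose symbol was Slc followed by a number were taken, apart from Slc17a7. This gave 140 of the 6248 genes listed, and all 140 matched a current symbol of RefSeq. RefSeq holds 374 protein-coding genes of such names, so 37.4% of them could be described. Coverage followed the alphabet: 61.9% of the names up to Slc26 were listed (99 of 160) and 19.2% of those after it (41 of 214).

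Sections of 6 µm of fresh-frozen cochlea from male CBA/CaJ mice aged 16 weeks had been profiled with GeoMx, in which barcoded probes are released by light from chosen regions of a section and counted by sequencing. The noise was broadband, at 100 dB SPL for 2 h, and the exposed animals were awake in wire cages. Controls had a mock exposure. There were 5 animals per treatment, and no label named the animal of a region. The labels gave 2 accounts of the time of collection: sample titles of both treatments added 4 h to the 2 h of exposure, and the series description had the animals killed as soon as it ended. The groups were 16 neuron and 14 supporting-cell regions after mock exposure, and 13 neuron and 8 supporting-cell regions after noise. Noise neuron replicate 6 had the same value, 3.12, for every gene, and was left out, so 12 noise neuron regions and 50 regions in all were used. Nothing in the labels said that regions of a group were separate animals, so p-values measure the spread between regions, which may be technical. With 8 to 16 regions from 5 animals, at least some regions of each group share an animal, which makes all of the p-values below too small.

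Hearing rests on solute carriers at several sites. Carriers and pumps of the lateral wall secrete potassium into the fluid above the hair cells, vesicular carriers load glutamate into synaptic vesicles, and glia and neurons exchange amino acids through surface carriers. Mitochondrial carriers of the Slc25 family pass ADP, ATP, phosphate and metabolites across the inner mitochondrial membrane of every cell type, and neurons are rich in mitochondria.

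Values are the deposited scaled signal, in which every region had an upper quartile of 3.12. Each region's values were whole multiples of what 1 read was worth, with a floor of 1 read. Reads recovered in this way ranged from 9607 to 88156 per region, with group medians of 23494 in mock and 26710 in noise neurons, and of 12885 in mock and 16882 in noise supporting cells. In the median region, 31.4%, 16.1%, 46.5% and 32.1% of the carriers, in the same order, stood at 1 read. All 8 listed neuron markers were above background in both neuron groups, and 6 of the 8 were so in both supporting-cell groups. Their summed signal had a median of 211 in mock and 169 in noise neurons, against 57.3 and 73.3 in mock and noise supporting-cell regions. The 8 listed glial markers summed to medians of 119 and 54.7 in mock and noise supporting-cell regions, against 40.5 and 24.7 in mock and noise neurons. Of these, 8 and 5 were above background in mock and noise supporting-cell regions, and 7 and 3 in mock and noise neurons. The glial markers S100b and Prx differed little between mock neurons and mock supporting cells (0.11 and -0.22 on the log2 scale). Of 8 markers of organ of Corti supporting cells 2 were listed, Sox2 and Prox1, and neither was above background in the supporting-cell regions. None of 5 hair-cell markers was listed. The other 6 were not analysed here, so the label could be checked against glial markers and hardly against those of the organ of Corti. The series table gave each region a prefix, a different one for each treatment, and an area number within that prefix. An area held a neuron region beside the supporting-cell region in 22 cases, and with its prefix no area held both treatments, so treatment and prefix cannot be told apart.

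Background was read from the 568 olfactory receptor (Olfr) rows, genes of the nasal epithelium. A carrier was taken as above background in a group where its mean log2(signal + 1) exceeded the 95th percentile of the Olfr group means. That limit corresponded to a signal of 2.33 in mock and 3.08 in noise neurons, and of 2.94 in mock and 3.64 in noise supporting cells. The mean log2 level of the Olfr rows was itself 1.41 ± 0.11 (SD, n = 16) in mock and 1.60 ± 0.11 (n = 12) in noise neurons, and 1.65 ± 0.08 (n = 14) in mock and 1.71 ± 0.11 (n = 8) in noise supporting cells. Mock neurons had the lowest background. Each gene was read by its own probes, so levels are compared between groups and against this background, and not from gene to gene.

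By this measure 47 of 140 carriers stood above background in mock neurons (33.6%, against 29.0% of all genes) and 34 in noise neurons (24.3% against 15.7%). In mock supporting cells there were 25 (17.9% against 11.3%), and in noise supporting cells 27 (19.3% against 6.85%). In every group the carriers' share was the larger, with no test made of the difference. A total of 52 carriers were above background in at least 1 group, 19 in all 4 and 88 in none. The share of all genes was not counted across groups or by family. These counts therefore describe the carriers and do not set them apart from other genes. Some Olfr rows pass the limit in each group by its definition. Of the 52, 14 were above it in mock neurons alone, 4 in both neuron groups and no other (Slc38a1, Slc6a17 and Slc25a5 among them), and 2 in mock supporting cells alone (Slc12a2 and Slc6a15). The limit was lowest in mock neurons, and Slc16a11, Slc24a2, Slc25a51 and Slc26a3 of the 14 had a higher mean in another group. With the highest Olfr row as the limit 14, 8, 9 and 8 carriers remained in mock neurons, noise neurons, mock supporting and noise supporting cells. The share of all genes above that row was not counted.

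**Figure D1:**
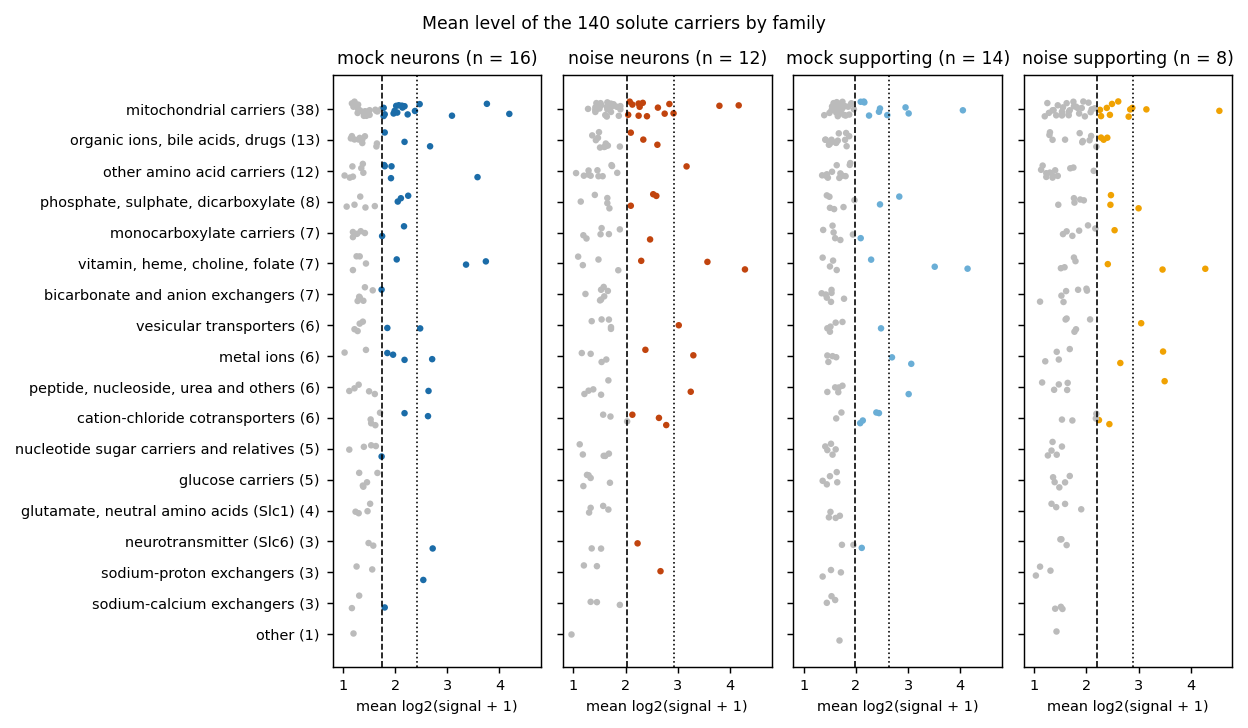
Mean log2(signal + 1) of each of the 140 carriers (1 point each) by family, with the number of members in brackets, in the 4 groups. Coloured points lie above the 95th percentile of the Olfr rows (dashed line) and grey points do not; the dotted line is the highest Olfr row. Mitochondrial carriers supply 18 of the 52 carriers above background in at least 1 group, and no member of the glucose or glutamate families is coloured.

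The mitochondrial family was the best covered, with 38 of 47 genes listed, and 18 of the 38 stood above background in at least 1 group. Among those above it in all 4 groups were Slc25a3, the phosphate carrier, Slc25a4, an ADP/ATP exchanger, Slc25a11, which exchanges oxoglutarate for malate, Slc25a12, an aspartate-glutamate carrier, and Slc25a24, which exchanges ATP-magnesium for phosphate. Slc25a11 had values of 7.80 to 19.3 (median 12.7) in mock and 10.9 to 25.5 (median 17.5) in noise neurons, and of 9.36 to 26.5 (median 16.1) in mock and 14.6 to 28.1 (median 23.9) in noise supporting cells. All 50 regions exceeded the Olfr limit of their own region, and the 4 groups overlapped. Limits of single regions lay above those of the groups, and other carriers above background passed them less often. Slc25a12 exceeded the limit of the region in 8 of 16 mock and 7 of 12 noise neuron regions. In supporting cells it did so in 1 of 14 mock and 1 of 8 noise regions. The mitochondrial glutamate carrier Slc25a22 was above background in no group, with group medians between 1.56 and 3.12.

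Of the vitamin carriers, Slc23a1 and Slc23a2, which take up ascorbate with sodium, and the related Slc23a3 were above background in all groups. Slc23a2 had values of 8.32 to 19.2 (median 12.5) in mock and 12.5 to 22.9 (median 18.7) in noise neurons, and of 4.68 to 29.1 (median 18.7) in mock and 10.4 to 26.2 (median 18.7) in noise supporting cells. Mock neurons were the lowest of the 4 groups by median, and all groups overlapped. Slc23a1 had medians of 9.36, 10.1, 9.36 and 12.0 in the same order of groups. Slc11a1 and Slc11a2, carriers of divalent metals, the lysosomal histidine and peptide carrier Slc15a4, and Slc17a1, known as a phosphate and urate carrier of the kidney, were above background in all 4 groups as well. Slc11a1 had medians of 6.50, 9.36, 6.76 and 10.3, Slc15a4 of 4.68, 8.32, 7.80 and 10.3, and Slc17a1 of 4.42, 7.15, 4.94 and 7.54, each in the order mock neurons, noise neurons, mock supporting and noise supporting cells. Slc11a1 is best known from macrophages, none of whose 5 markers was listed, so the part of such cells was not tested.

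Of 6 listed cation-chloride cotransporters, which set the chloride level of a cell and move potassium in the lateral wall, 4 were above background in at least 1 group. Slc12a1, known as the sodium-potassium-chloride cotransporter of the kidney, was above it in all 4, with medians of 3.64, 5.72, 4.16 and 3.90 in mock neurons, noise neurons, mock supporting and noise supporting cells. In the same order, 6 of 16, 7 of 12, 4 of 14 and 2 of 8 regions exceeded the Olfr limit of their own region. Slc12a7, a potassium-chloride cotransporter, was above background in both neuron groups and in mock supporting cells. Its values were 1.56 to 9.36 (median 5.98) in mock and 4.16 to 7.80 (median 5.79) in noise neurons, and 1.04 to 6.24 (median 3.12) in mock and 1.56 to 6.24 (median 3.12) in noise supporting cells. The neuron regions lay higher by median and the groups overlapped. The difference missed the threshold of 0.05 under mock exposure, at a log2 difference of 0.49 (SE 0.20, limma adjusted p 0.0716), and after noise, at 0.60 (SE 0.26, adjusted p 0.153).

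Of 12 other amino acid carriers 5 were above background: Slc38a1 in both neuron groups, and Slc38a2, Slc38a10, Slc7a5 and Slc7a14 in mock neurons alone. Slc7a5 carries large neutral amino acids. The sodium-dependent transporters of the Slc6 family, to which the carriers of neurotransmitters belong, had 3 of 21 genes listed, of which Slc6a15 and Slc6a17 were above background and the creatine carrier Slc6a8 was not. Among 13 organic ion, bile acid and drug carriers 4 were above background in at least 1 group, Slc22a7, Slc22a8, Slc22a17 and Slc10a7. Slc10a7 was so in mock neurons and noise supporting cells, with 0 of 16 and 0 of 8 regions above their own Olfr limit. Among 8 phosphate, sulphate and dicarboxylate carriers 3 were above background, with Slc20a2 and Slc13a4 above it in all groups. The metal carriers had 4 of 6, with the zinc carriers Slc30a9 and Slc39a7 in mock neurons alone. Of 7 monocarboxylate carriers, which move lactate and related acids, Slc16a9 was above background in all groups and Slc16a11 in mock neurons, where its mean signal of 2.59 was the lowest of its 4 groups (2.98 to 3.34 in the others) and passed a lower limit. The bicarbonate and anion exchangers had 1 of 7 (Slc26a3), the sodium-calcium exchangers 1 of 3 (Slc24a2), the nucleotide sugar carriers 1 of 5 (Slc35b4), and the peptide, nucleoside and urea carriers 1 of 6 (Slc15a4).

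Several carriers known in the ear or in neurons could not be told from background in some or all of the groups. Slc26a5, prestin, the motor protein of outer hair cells, had group medians of 1.40 to 1.82. Slc17a8, which fills the synaptic vesicles of inner hair cells with glutamate, had group medians of 1.30 to 3.12. Slc17a6, a vesicular glutamate transporter of neurons, was above background in mock neurons, with values of 1.04 to 6.24 (median 2.86), and in no other group. Its log2 difference between mock neurons and mock supporting cells was 0.35 (SE 0.19, limma adjusted p 0.192). The glucose carriers Slc2a1 and Slc2a3 and the sodium-calcium exchanger Slc8a1 were above background in no group, with group medians of at most 2.21. None of the 5 glucose carriers and none of the 4 glutamate and neutral amino acid carriers of the Slc1 family was above background in any group. At group medians of 1.00 to 3.00 reads per region for Slc2a1, Slc2a3, Slc8a1, Slc17a8 and Slc26a5, these data do not show whether they are expressed.

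The region types were compared to ask which carriers differ between neurons and the cells around them. Genes with a mean signal at or above 1.85, the 0.25 quantile, were tested with limma on log2(signal + 1) and p-values were adjusted by Benjamini-Hochberg over all 4686 genes tested; a gene is called at an adjusted p below 0.05. Of the 140 carriers 110 were tested. Under mock exposure 14 of 110 carriers were called, 12.7%, against 19.1% of all genes tested. In neurons 8 were higher (against 13.4% of all genes) and 6 were lower (against 5.63%). The median log2 difference, neurons minus supporting cells, was -0.15 over the 110 carriers, -0.05 over all genes and -0.23 over the 465 Olfr rows tested. After noise 4 carriers were called, where 7.94% of all genes were: 3 were higher in neurons (against 6.76% of all genes) and 1 was lower (against 1.17%). DESeq2 on the recovered reads called 8 after noise, where 19.9% of the genes it gave an adjusted p were called.

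The largest difference was in Slc38a1, a sodium-coupled carrier that brings glutamine and other neutral amino acids into neurons (chromosome 15, 96571418 to 96643438 in GRCm38.p6). Its signal was 6.24 to 18.7 (median 11.4) in mock neurons and 1.56 to 5.20 (median 2.60) in mock supporting cells. All 16 neuron regions lay above the highest supporting-cell region, and the 14 areas with both region types all had the higher value in the neuron region. The log2 difference was 1.69 (SE 0.21, limma adjusted p 2.62e-14; permutation test over regions, two-sided p 2.00e-05, the smallest that 100000 resamples can give). After noise its signal was 1.04 to 14.6 (median 8.74) in neurons and 1.56 to 4.99 (median 3.51) in supporting cells. The value 1.04, in 1 neuron region, lay below all supporting-cell regions, and 11 of 12 neuron regions lay above all of them. That difference was 1.03 (SE 0.26, limma adjusted p 0.00210; exact permutation test, two-sided p 0.00386). Slc38a1 was below the Olfr limit in both supporting-cell groups, so 1.69 and 1.03 set neurons against background. Beside it the summed neuron markers moved in the same direction, 211 against 57.3 under mock exposure and 169 against 73.3 after noise, and fewer neurons in a region cannot be told apart from less RNA per neuron.

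Slc6a17, which loads neutral amino acids into synaptic vesicles, had a signal of 1.56 to 11.7 (median 5.72) in mock neurons and 1.04 to 7.80 (median 3.12) in mock supporting cells. The groups overlapped, with 13 of 16 neuron regions above the supporting-cell mean. It differed by 0.77 on the log2 scale (SE 0.20, limma adjusted p 0.00163), and by 0.39 with the Olfr mean of each region as a covariate, where it was not called. After noise the signal was 0.780 to 8.66 (median 4.16) in neurons, against 0.780 to 4.68 (median 1.40) in the supporting regions, a log2 difference of 0.71 (SE 0.25, limma adjusted p 0.0564) that missed the threshold. In 6 of the 7 areas with both region types after noise the neuron region was the higher and in 1 both were equal.

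**Figure D2:**
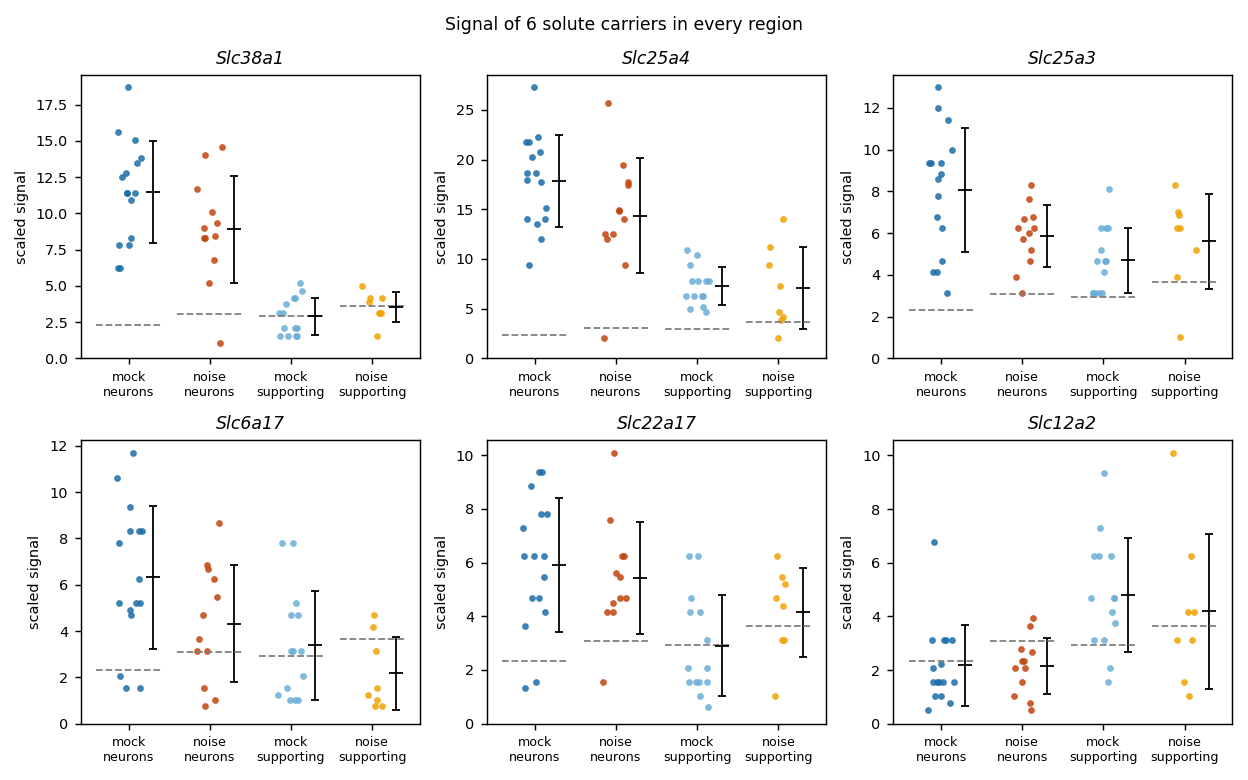
Scaled signal of 6 carriers in each region (1 point each) by group, with the group mean and SD (black) and the Olfr limit (dashed line). Slc38a1 separates mock neurons from mock supporting cells in every region, Slc6a17 is highest by mean in mock neurons and overlaps between groups, and Slc12a2 is higher in mock supporting cells.

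Of the mitochondrial carriers 36 were tested, of which 3 were called higher in mock neurons, where 13.4% of all genes were, and 2 lower, where 5.63% were. Slc25a4 (chromosome 8, 46207168 to 46211062), the ADP/ATP carrier of the inner mitochondrial membrane in heart, muscle and brain, had a signal of 9.36 to 27.3 (median 18.3) in mock neurons and 4.68 to 10.9 (median 7.02) in mock supporting cells, and 15 of 16 neuron regions lay above all supporting-cell regions. They were higher by 1.18 (SE 0.20, limma adjusted p 5.57e-08; permutation test over regions, two-sided p 2.00e-05). After noise the values were 2.08 to 25.7 (median 14.4) in neurons, against 2.08 to 14.0 (median 5.98) in the supporting regions, and the difference was 0.96 (SE 0.24, limma adjusted p 0.00280; exact permutation test over regions, two-sided p 0.0176). The groups overlapped after noise, with 6 of 12 neuron regions above all supporting-cell regions. Slc25a5, the other listed ADP/ATP carrier, was above background in the neuron groups alone, with medians of 3.12 and 2.91 there against 2.08 and 2.10, and its log2 difference of 0.36 under mock exposure missed the threshold (SE 0.20, limma adjusted p 0.190).

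Slc25a3, which brings phosphate into the mitochondrion for ATP synthesis, had a signal of 3.12 to 13.0 (median 8.71) in mock neurons and 3.12 to 8.11 (median 4.68) in mock supporting cells. In 9 of 16 neuron regions it exceeded all supporting-cell regions, and the log2 difference was 0.63 (SE 0.21, limma adjusted p 0.0159). It was 0.28 with the Olfr covariate, and neither that fit nor DESeq2 called it. After noise the medians were 6.13 in neurons and 6.24 in the supporting regions, a difference of 0.14 (SE 0.26, adjusted p 0.843). Slc25a25, a calcium-regulated carrier of ATP-magnesium and phosphate, was higher in mock neurons by 0.59 (SE 0.20, limma adjusted p 0.0243), with medians of 5.20 against 2.08 and overlapping ranges of 1.56 to 9.87 and 1.04 to 8.32. It lost the call with edgeR, with DESeq2, with the Olfr covariate and with the replicate block.

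The promoters of Slc25a4 and Slc25a3 are shown because both are mitochondrial carriers of ATP synthesis that were called higher in mock neurons. The sequences are the 250 bases before the RefSeq start in GRCm38.p6, chr8:46211063-46211312 for Slc25a4 and chr10:91123968-91124217 for Slc25a3, both on the minus strand and printed 5′ to 3′. Capitals mark matches, on either strand, to the letters of 3 textbook promoter boxes: CCAAT, the TATA box written TATAA, and the GC box. The GC box was searched as GGGCGG, and no match overlapped another.
Slc25a4: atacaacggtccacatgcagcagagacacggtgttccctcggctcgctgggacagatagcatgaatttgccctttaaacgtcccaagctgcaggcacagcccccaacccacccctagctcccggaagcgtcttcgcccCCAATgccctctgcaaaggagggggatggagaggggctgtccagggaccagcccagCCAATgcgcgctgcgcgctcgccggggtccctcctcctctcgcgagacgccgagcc
Slc25a3: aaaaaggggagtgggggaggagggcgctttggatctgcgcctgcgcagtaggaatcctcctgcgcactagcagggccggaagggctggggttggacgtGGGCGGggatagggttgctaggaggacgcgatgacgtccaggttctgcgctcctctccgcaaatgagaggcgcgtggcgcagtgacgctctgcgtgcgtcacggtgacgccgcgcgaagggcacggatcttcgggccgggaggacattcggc
Slc25a4 held CCAAT at 2 places, 112 to 108 and 56 to 52 bases before the start, and the other boxes were not in the window. Slc25a3 held the GC box 152 to 147 bases before the start, and neither of the others. Of the 32851 RefSeq promoters of the same length 33.8% held CCAAT, 32.7% the GC box and 22.8% the TATA box. None of the 3 was held by both windows. These are matches of letters and not measured sites.

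Slc22a17, a receptor of lipocalin 2 placed among the organic ion carriers, had a signal of 1.34 to 9.36 (median 6.24) in mock neurons and 0.624 to 6.24 (median 2.08) in mock supporting cells. The groups overlapped, and 14 of 16 neuron regions exceeded the supporting-cell mean. It was higher by 0.86 on the log2 scale in neurons (SE 0.20, limma adjusted p 3.52e-04), and it was called with the Olfr covariate, edgeR and DESeq2 as well. It was below the Olfr limit in mock supporting cells, so this difference too was against background. After noise the medians were 5.07 and 4.52, and the log2 difference of 0.33 missed the threshold (SE 0.25, adjusted p 0.527). The change of the region-type difference with noise was not called either (0.53 smaller, adjusted p 0.874). Slc30a9, a zinc transporter of mitochondria, was also called higher in mock neurons, with a log2 difference of 0.50 (SE 0.19, limma adjusted p 0.0441), medians of 3.12 and 1.56, and no call with edgeR, DESeq2 or the Olfr covariate.

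The carriers lower in mock neurons than in mock supporting cells had few reads. Slc12a2, the sodium-potassium-chloride cotransporter that feeds potassium secretion in the lateral wall and is also found in glia and sensory neurons, had a signal of 0.520 to 6.76 (median 1.56) in mock neurons and 1.56 to 9.36 (median 4.68) in mock supporting cells. The median supporting-cell region held 3.50 reads of it. On the log2 scale it differed by -0.90 (SE 0.20, limma adjusted p 8.13e-05), and the supporting-cell region was the higher in 12 of 14 areas. It was above background in mock supporting cells alone, where 4 of 14 regions exceeded their own Olfr limit, and in neurons it had no level above background. After noise its medians were 2.21 in neurons and 3.64 in the supporting regions, a difference of -0.62 (SE 0.24, adjusted p 0.106). The summed glial markers were also higher in mock supporting cells (119 against 40.5), and their part in this difference was not tested.

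Slc20a2, a sodium-coupled phosphate carrier, was above background in all groups, with values of 0.780 to 7.28 (median 3.12) in mock neurons and 3.12 to 12.5 (median 6.24) in mock supporting cells. The log2 difference was -0.73 (SE 0.21, limma adjusted p 0.00417), with 5 of 14 supporting-cell regions above all neuron regions. Slc25a34, a mitochondrial carrier of unsettled substrate, ranged from 3.12 to 6.24 (median 4.03) in mock neurons and from 1.56 to 12.5 (median 7.95) in mock supporting cells, and its log2 difference was -0.57 (SE 0.21, limma adjusted p 0.0341). Slc6a15, a carrier of branched-chain amino acids, was lower by 0.53 in mock neurons on the log2 scale (limma adjusted p 0.0299). Slc14a1, a urea carrier (adjusted p 0.0204), and Slc25a28, an iron carrier of mitochondria (adjusted p 0.0248), each fell by 0.53 as well, and neither was above background in any group.

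The Olfr rows moved in the same direction as these 6 carriers, since their mean level was 1.65 in mock supporting cells and 1.41 in mock neurons. With the Olfr mean of each region as a covariate 5 carriers were called, where 8.69% of all genes were, and all 5 were higher in neurons (against 7.83% of all genes higher and 0.854% lower). Among them were Slc38a1, Slc25a4, Slc22a17 and Slc25a46, a protein of the outer mitochondrial membrane. None of the 6 lower carriers was called with that covariate. Their log2 differences then ranged from -0.59 in Slc25a34 to -0.09 in Slc25a28, with Slc12a2 at -0.45.

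After noise the only carrier called lower in neurons was Slc18a2, the vesicular monoamine transporter, which was above background in no group. Its signal was 0.780 to 3.12 (median 1.47) in noise neurons and 1.04 to 5.20 (median 3.59) in noise supporting cells, at a median of 2.00 and 3.50 reads. The log2 difference of -0.73 (SE 0.23, limma adjusted p 0.0222) was not called with the Olfr covariate, nor without noise supporting replicate 2, 3, 4 or 7. Without noise supporting replicate 5, 8 carriers were called, where 7.23% of all genes were: Slc12a2, Slc22a27, Slc25a14 and Slc6a17 joined the 4. Without replicate 7 there were 3, where 6.34% of all genes were called. Slc38a1 and Slc25a4 were called after noise under all 19 alternatives. A separate test of whether noise changed the region-type difference called none of the 110 carriers in limma, 0 by edgeR and 0 by DESeq2. Of all genes 0% were called in it. In limma 7 carriers had an unadjusted p below 0.05, beside 263 of all 4686 genes. For Slc38a1, 1.69 under mock exposure and 1.03 after noise, that test gave an adjusted p of 0.857 (unadjusted 0.0446).

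**Figure D3:**
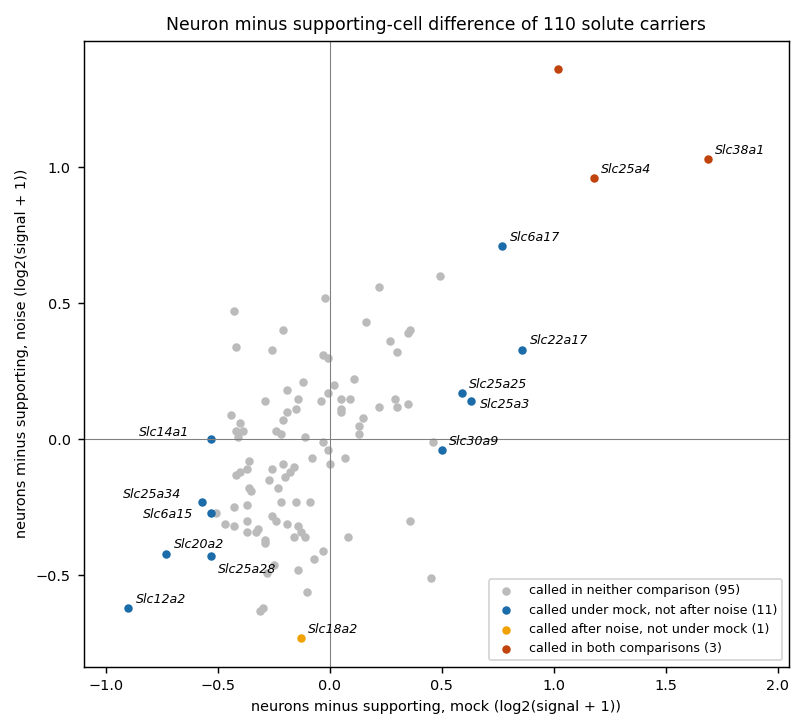
Log2 difference of neurons minus supporting cells under mock exposure (horizontal) and after noise (vertical) for the 110 tested carriers, coloured by call; the comparisons share no region. The 3 carriers called in both include Slc38a1 and Slc25a4; 11 carriers are called under mock exposure and not after noise, and Slc18a2 after noise and not under mock exposure; no carrier passed the test of the change between them.

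Noise was compared with mock exposure within each region type to ask which carriers respond to an acute exposure. In neurons limma called none of the 110 carriers, where 0.662% of all genes were called. An unadjusted p below 0.05 was found for 23 carriers, beside 632 of all 4686 genes and 82 of the 465 Olfr rows. On the recovered reads edgeR called 4 (3.94% of all genes), Slc22a8, Slc25a24 and Slc25a34 higher (0.538% of all genes) and Slc38a2 lower after noise (3.40%). DESeq2 called 4 as well (12.5% of the genes it gave an adjusted p), Slc22a8, Slc23a2, Slc25a24 and Slc25a34, all higher (1.15%). The log2 differences of the 110 carriers had a median of 0.15, and 84 of them lay above 0. Over all 4686 genes the median was 0.02, with 2515 above 0. Over the 465 Olfr rows it was 0.19, with 404 above 0.

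Slc22a8, an organic anion carrier, had the largest difference. Its signal was 0.891 to 7.28 (median 1.82) in mock neurons and 2.34 to 5.79 (median 4.03) in noise neurons, so that the noise values lay inside the mock range. The log2 difference was 0.69 (SE 0.21, limma adjusted p 0.0842), and the mean was above background only after noise. Slc25a24 went from 1.04 to 8.32 (median 3.90) in mock neurons to 2.34 to 9.36 (median 6.24) in noise neurons, a difference of 0.66 (SE 0.21, adjusted p 0.128). Slc15a4 went from 2.08 to 10.9 (median 4.68) to 6.24 to 12.5 (median 8.32), a difference of 0.61 (SE 0.21, adjusted p 0.151). Slc23a2, with medians of 12.5 and 18.7, differed by 0.55 (SE 0.19, adjusted p 0.150). With the Olfr mean as a covariate no carrier was called (0.0640% of all genes were).

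The carriers that lay lower after noise included some, and not all, of those called higher in mock neurons. Both comparisons used the same 16 mock neuron regions, so a carrier read high there would tend toward both results. The overlap is therefore no separate result. Slc25a25 went the other way, with mean log2 levels of 2.47 in mock and 2.62 in noise neurons. Slc25a51 and Slc38a2, given below, were not called between region types. Slc6a17 had medians of 5.72 and 4.16 in mock and noise neurons, a log2 difference of -0.49 (SE 0.21, limma adjusted p 0.273). Slc25a51, the NAD carrier of mitochondria, had medians of 3.12 and 1.56 and a difference of -0.46 (SE 0.20, adjusted p 0.287). Slc38a2, a relative of Slc38a1, had values of 1.04 to 5.20 (median 3.12) in mock neurons and 0.520 to 3.12 (median 2.08) in noise neurons, a difference of -0.44 (SE 0.20, adjusted p 0.304). Slc38a1 and Slc25a4 differed by -0.42 (SE 0.21, adjusted p 0.376) and -0.39 (SE 0.20, adjusted p 0.382). Beside them 1 of the 8 neuron markers, Nefh, was called lower after noise in neuron regions, where 21 of all 4686 genes were. The 8 neuron markers had a median log2 difference of -0.36. The part of neuron content in the carriers' differences was not tested.

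The noise differences were also set against a carrier's place in the alphabet, with no test made of the difference. In neurons the 88 tested carriers up to Slc26 had a median log2 difference of 0.20, with 77 above 0 and 11 below. All 2716 tested genes from N to Slc26, these carriers included, had one of 0.13, with 1922 above 0 and 794 below. The 22 tested carriers after Slc26 had a median of -0.06, with 7 above 0 and 15 below. The same median held for all 624 tested genes after Slc26, these carriers included, with 242 above 0 and 382 below. In supporting cells the medians were 0.13 (62 above 0 and 26 below) and -0.13 (5 and 17) for the carriers, and 0.05 and -0.09 for all genes. The carriers' shift above the median of all genes thus stands beside a shift of their stretch of the gene list. The stretch from N to Slc26 holds the 465 tested Olfr rows and most of the carriers, so it is no separate comparison. The cause of the shift was not tested.

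In supporting cells noise called no carrier by limma (0.363% of all genes), and none by edgeR (0.172% of all genes) or DESeq2 (3.72% of the 323 genes it gave an adjusted p). In limma 16 carriers had an unadjusted p below 0.05, beside 474 of all 4686 genes and 46 of the 465 Olfr rows. The median log2 difference of the 110 carriers was 0.09, against -0.03 over all genes and 0.10 over the Olfr rows. Slc22a7, an organic anion carrier, had values of 1.56 to 5.20 (median 2.49) in mock and 1.04 to 7.02 (median 5.41) in noise supporting cells, a difference of 0.58 (SE 0.24, limma adjusted p 0.353). Slc17a1 and Slc25a25 each differed by 0.57 (SE 0.25, adjusted p 0.387 and 0.382). On the other side Slc6a15 had medians of 3.12 and 1.82, a difference of -0.49 (SE 0.23, adjusted p 0.430). Slc12a2 differed by -0.25 (SE 0.24, adjusted p 0.772). Of the 8 glial markers 3 were called lower after noise in these regions, Mbp and Pmp22 among them, where 14 of all 4686 genes were. The others were not called, with S100b at -0.02 and Prx at -0.03 on the log2 scale. Slc16a1 had no value in noise supporting replicate 6 and was fitted there on the other 7 regions.

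Slc25a51 had the largest rise of the noise effect from neurons to supporting cells. Its medians were 3.12 and 1.56 in mock and noise neurons, and 1.56 and 4.03 in mock and noise supporting cells, with overlapping ranges. It was above background in mock neurons alone, and its median reads were 5.00, 3.00, 1.00 and 4.00 in the same order. The difference of the 2 noise effects was 0.96 on the log2 scale (SE 0.31, limma adjusted p 0.601, unadjusted p 0.00190). None of its 19 alternatives called it.

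**Figure D4:**
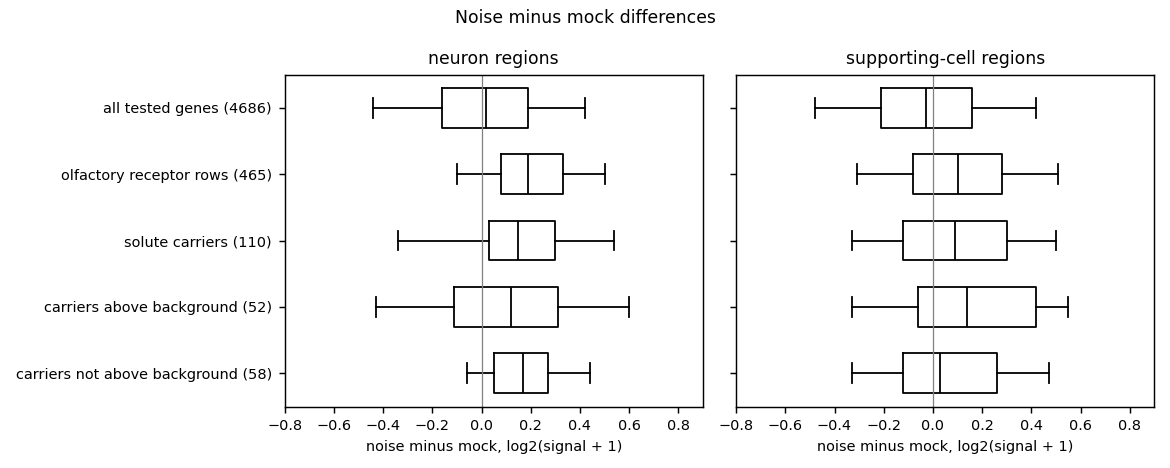
Noise minus mock log2 differences in neuron (left) and supporting-cell (right) regions for all tested genes, the Olfr rows, the 110 tested carriers, and the carriers above background in at least 1 group and in none. The line is the median, the box the middle quartiles and the whiskers the 5th and 95th percentiles; the carriers have medians of 0.15 and 0.09 beside 0.19 and 0.10 for the Olfr rows.

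Partner proteins of the carriers were read from lists of the sodium pump, the vacuolar proton pump, the kinases of cation-chloride cotransport and the organic anion carriers of the Slco family. The sodium pump, which drives sodium-coupled carriers such as Slc38a1 and Slc12a2, had 8 of 11 genes listed and 6 tested. In mock neurons 2 were higher and 2 lower than in mock supporting cells (against 13.4% and 5.63% of all genes), and after noise again 2 were higher and 2 lower (against 6.76% and 1.17%). Atp1b1, a subunit that brings the pump to the cell surface, was higher in mock neurons by a log2 difference of 1.81 (SE 0.15, limma adjusted p 7.07e-29) and in noise neurons by 1.54 (SE 0.19, adjusted p 8.29e-13). The regulator Fxyd6 differed by -0.87 under mock exposure (SE 0.19, adjusted p 9.24e-05) and by -0.45 after noise (SE 0.24, adjusted p 0.295). The vacuolar proton pump, whose gradient drives vesicular carriers, had 12 genes tested, with 5 higher in mock neurons (against 13.4% of all genes), 2 after noise (against 6.76%) and 0 lower in either. Of the 3 kinase genes tested, none was called in any comparison. Slco1c1, a thyroid hormone carrier, was lower in mock neurons by a log2 difference of -0.65 (SE 0.18, adjusted p 0.00347), where the Olfr rows had a median of -0.23. After noise it differed by -0.26 (SE 0.22, adjusted p 0.573), and it was above background in no group. In none of these lists was a gene called between noise and mock in either region type.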

How the data were processed

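The authors deposited 1 file of scaled signal per region and a table of the whole series with the same values (largest difference 0.0). Per the submitters' processing notes, DRAGEN and mm10 (GRCm38) were used; filters and the treatment of counts of 0 are not given in the sources used here. The deposited signal was scaled to a common upper quartile, and 99.99% of its values, over 50 regions, were whole multiples (within 0.01) of the lowest value, so read counts were recovered by division. The 1 gene that was not whole stayed out of the tests on reads. Entries holding a letter (66, of them 60 in noise and 6 in mock supporting-cell regions) were treated as missing. The labels of noise supporting replicate 8 list a read file of another well; without it the carriers called were 14, 4, 0, 0 and 0 (region type under mock and after noise, noise in neurons and in supporting cells, and the difference), as with it. Depth is given in the report; shallow regions resolve single reads only.

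limma 3.58.1 (R 4.3.3; lmFit, eBayes with trend) was fitted on log2(signal + 1) with 1 mean per group over 50 regions; fold changes on this scale understate those of low genes, and SEs lean on the spread of genes of like mean. edgeR 4.0.16 (TMM, quasi-likelihood test) and DESeq2 1.42.0 were run on recovered counts of 4646 genes, 109 of them carriers. Permutation tests of called members were added after the values were seen.

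The members and lists were chosen with earlier results of these data known. Members named are those called (in a comparison of over 12, the 6 highest and 6 lowest), the 12 with the highest mean, the 3 largest rises and falls per comparison among those above background, and a list of cochlear and neuronal carriers (14 of 32 listed); other members are named for a count of their family or call and were chosen after their values were seen. RefSeq promoters were listed for 109 of the 140 members. Results for a few named genes are not reported here, though counts include them.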

Additional observations from a re-analysis of the deposited data

Results flagged for a closer look

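A single region stood apart from the other 7 in the noise supporting group for 2 of the 38 carriers checked, where chance alone sets about 1 in 20 groups apart. Slc25a34, a mitochondrial carrier, had a signal of 2.08 in replicate 3, from 2 reads, and 7.80 to 12.5 in the others. Slc26a5, prestin, had 4.68 in replicate 8, from 6 reads, and 1.04 to 2.34 in the others. Neither was called in a comparison with noise supporting cells.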

How the results depend on the processing

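Depth limits these results: most carriers held a few reads per region. For noise against mock in neurons the count of carriers called was 0 in limma and 4 with edgeR and 4 with DESeq2. For neurons against supporting cells under mock exposure it was 14, and 5 with the Olfr mean as a covariate. After noise it was 4, 8 with DESeq2, and 3 to 8 when each noise supporting replicate was left out in turn (8 without replicate 5). When the highest Olfr row set the limit, the carriers above background were 14 and 8 in mock and noise neurons and 9 and 8 in mock and noise supporting cells. The other alternatives (pseudocounts of 0.5 and 4, other filters, replicate 6 kept, robust eBayes, captured area as a random block) kept these counts within 1.5 times. Of the named members' values under alternatives, 694 kept their direction and side of the threshold, 29 lost and 7 gained the call, and 0 reversed. The 694 pool values called and not called in the main fit, and only called values could lose the call. They are therefore no measure of how steady the calls were. With the replicate number as a block 13 carriers were called for region type under mock exposure and 6 after noise. Of all 4686 genes that fit called 612 higher and 240 lower in neurons under mock exposure, and 285 and 41 after noise. For noise in neurons, noise in supporting cells and their difference it called 0, 0 and 0 carriers. Of all genes it called 4 higher and 15 lower, 1 and 11, and 0 and 0 in these. Same-numbered regions of both treatments did not deviate together (median r -0.00, n = 20 pairs, range -0.10 to 0.03), so the numbers were not taken to pair regions.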
